A study of Zea mays with 14 samples.

Results

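The maize genome array carries 3 control probe sets for ubiquitin, taken here as all rows of the deposited table whose identifier begins with AFFX-Zm_Ubiquitin. They are AFFX-Zm_Ubiquitin_5_f_at for the 5′ part of the transcript, AFFX-Zm_Ubiquitin_M_f_at for the middle and AFFX-Zm_Ubiquitin_3_s_at for the 3′ part, 3 of 17734 probe sets in the table and 3 of 27 controls named for a maize gene. Embryonic axes of Zea mays, the part of the embryo that becomes root and shoot, were studied on 14 arrays from 11 biological samples. Total RNA came from quiescent axes (time 0, 2 samples), from axes of seeds germinated for 24 h (2 samples, named M4 and RB) and from insulin-treated axes (1 sample). Polysomal RNA, recovered with the mRNAs that carry several ribosomes, came from germinated axes without insulin (3 samples) and with insulin (3 samples). In the insulin experiment, axes from seeds imbibed for 22 h were kept for 2 h in Murashige and Skoog medium, and the treated ones received bovine insulin at 200 µU/mL. The labels name no cultivar, and they do not state if the axes behind the 24 h total RNA also spent time in medium. Axes of many seeds went into each RNA, since 1 g of axes was used for total and 2 g for polysomal RNA.

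Ubiquitin is a small protein that cells attach to other proteins, most often to mark them for destruction by the proteasome. Attachment runs through an activating enzyme, a conjugating enzyme and a ligase. Plants make ubiquitin from polyubiquitin genes, which encode head-to-tail copies of the protein, and from genes in which ubiquitin is fused to a ribosomal protein. Ubiquitin transcripts are commonly used as a steady reference in expression studies, and seeds store mRNAs made during maturation that remain in the dry embryo. By the array maker's naming, the suffixes f and s mark probe sets whose probes are shared by similar sequences, so signal from different ubiquitin genes could not be told apart. In the RefSeq gene table (Zm-B73-REFERENCE-NAM-5.0), 3 genes have a synonym that begins with ubiquitin, and their synonyms include MUB3, MUB6 and MUB14. This search can miss ubiquitin genes listed under other names. No source used here says which ubiquitin genes the probe sets measure. No probe or transcript sequence of ubiquitin was among the sources used here.

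Ubiquitin was among the brightest signals on the arrays, and in all 3 probe sets it was highest in quiescent axes and lowest in polysomal RNA. The values below are log2 signals, on which 1 unit is a factor of 2. The middle probe set stood at 13.33 and 13.30 in the 2 quiescent samples. In total RNA of 24 h axes it was 12.62 in M4 and 13.30 in RB, and in insulin-treated total RNA it was 12.90. On polysomes it was 12.32, 12.03 and 12.22 in samples 1 to 3 without insulin, and 11.95, 12.40 and 12.17 with insulin. The quiescent samples and RB therefore share the top of the range, and every polysomal sample lies below every total RNA sample, quiescent ones included. The same held for 7.69% of all 17582 probe sets tested, and for 9.91% with only total RNA of germinated axes on the other side. The 5′ probe set followed the same course at a lower signal. It was 12.56 and 12.44 in quiescent axes, 11.76 in M4, 12.38 in RB and 12.07 with insulin in total RNA. It was 11.46, 10.90 and 11.31 on polysomes without insulin and 10.87, 11.45 and 11.13 with insulin. Again no polysomal sample reached the lowest total RNA sample. The 3′ probe set stood at 13.13 and 13.03 in quiescent axes, 12.38 in M4, 12.90 in RB and 12.34 in insulin-treated total RNA. On polysomes it was 12.04, 12.22 and 11.90 without insulin and 12.24, 12.06 and 11.74 with insulin. Here the gap between the brightest polysomal sample (12.24) and the dimmest total RNA sample (12.34) was narrow.

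**Figure D1:**
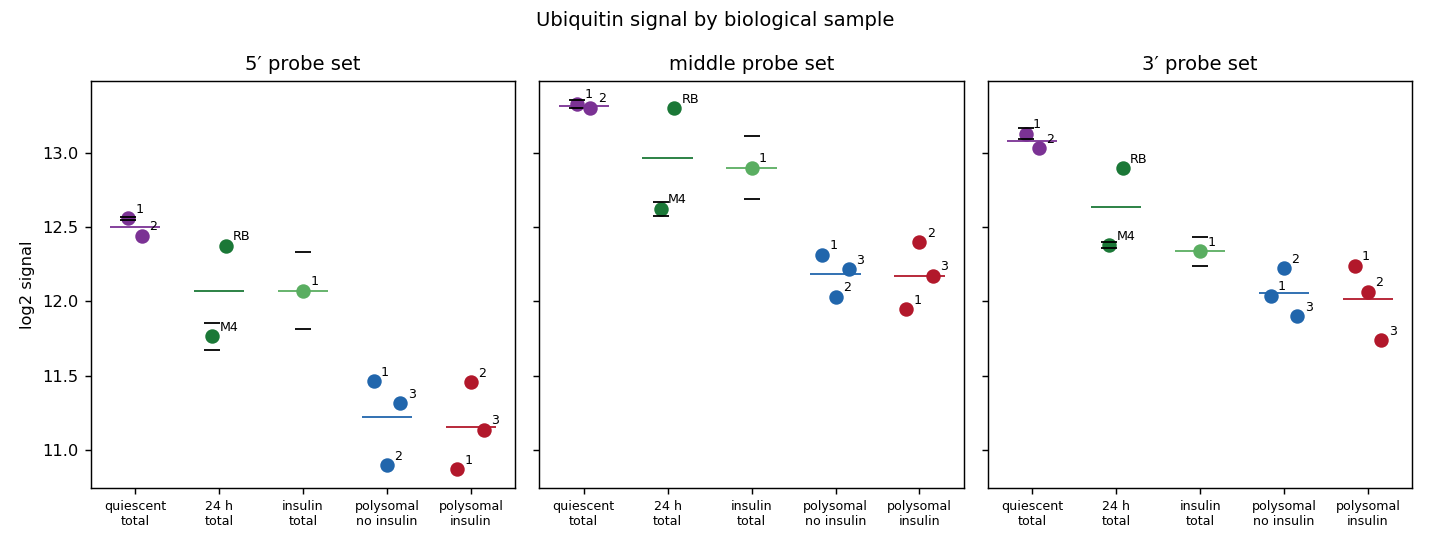
Log2 signal (vertical axis) of the 5′, middle and 3′ ubiquitin probe sets in each biological sample, by group; points are samples with their names, horizontal lines group means, and black ticks the single arrays of samples hybridised on 2 arrays. The middle probe set lies between 13.30 and 13.33 in quiescent axes and between 11.95 and 12.40 in the polysomal samples.

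Every member was far above background, set in each sample at the 95th percentile of its 23 negative controls. The smallest distance over the 11 samples was 6.36 log2 units for the 5′ probe set, 7.44 for the middle and 7.37 for the 3′ probe set. The brightest signal on any array was 14.38. Ranks were taken among the 17582 probe sets tested, from the brightest down, and a rank reflects the probes as well as the mRNA, so it was read only between samples for the same probe set. The middle probe set ranked 89 and 93 in quiescent axes, 319 in M4, 82 in RB and 226 in insulin-treated total RNA, and between 494 and 803 in the 6 polysomal samples. The 3′ probe set ranked 128 and 158 in quiescent axes, 471 in M4, 218 in RB and 514 in insulin-treated total RNA, and between 577 and 976 on polysomes. The 5′ probe set moved from 365 and 432 in quiescent axes to 892 in M4, 474 in RB and 691 in insulin-treated total RNA, and to between 1213 and 1867 on polysomes. Ranks do not depend on how arrays are scaled, and in each probe set no polysomal sample ranked above any total RNA sample, as was so for 6.71% of all probe sets.

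**Figure D2:**
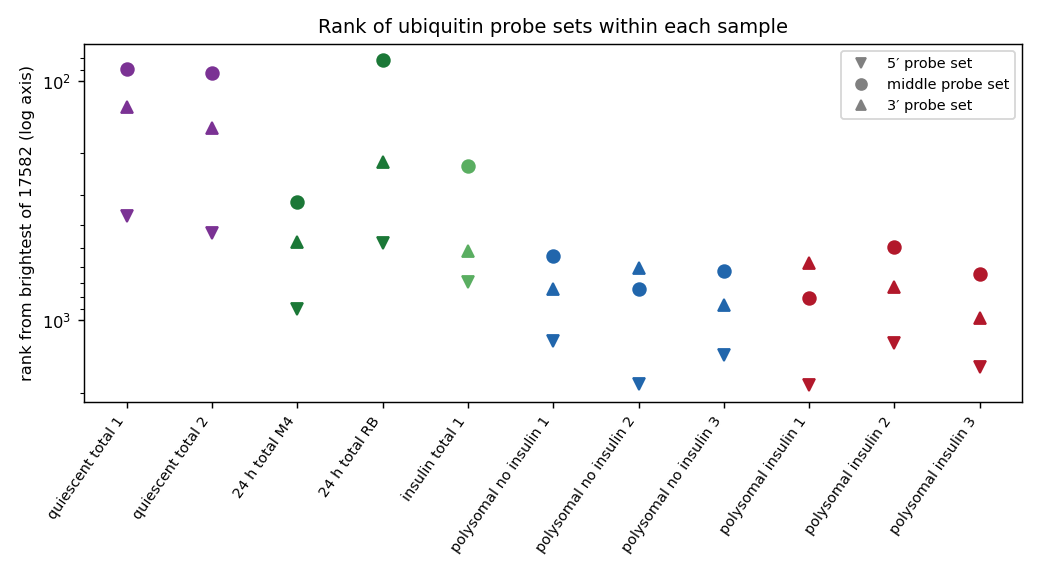
Rank from the brightest (vertical axis, logarithmic, 1 at the top) of each ubiquitin probe set among 17582 probe sets in each of the 11 samples; colours are groups and marker shapes are probe sets. The middle probe set is at 82 to 319 in total RNA and at 494 to 803 on polysomes.

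The first comparison was between 24 h and quiescent axes in total RNA. All 3 probe sets had lower means at 24 h, and none passed the test. The 5′ probe set went from 12.50 ± 0.08 to 12.07 ± 0.43 (SD, n = 2 each), a difference of −0.43 log2 units (SE 0.27, limma adjusted p = 0.221). The middle probe set went from 13.32 ± 0.02 to 12.96 ± 0.48, a difference of −0.35 (SE 0.24, limma adjusted p = 0.252). The 3′ probe set went from 13.08 ± 0.07 to 12.64 ± 0.37, a difference of −0.44 (SE 0.23, limma adjusted p = 0.140). Both 24 h samples lay below both quiescent samples in all 3, as they did in 43.2% of all probe sets, and in the middle probe set RB and the second quiescent sample were equal to 2 decimals. Of all probe sets tested, 47.1% were called in this comparison, 25.8% lower and 21.3% higher, and the median difference over all was −0.17. The 95% confidence intervals of the members reached from −1.05 to 0.19 for the 5′, −0.90 to 0.19 for the middle and −0.96 to 0.07 for the 3′ probe set. All 3 were called lower with each array centred on its median, a scaling under which the table-wide median was −0.45 (differences −0.71, −0.63 and −0.72 in the order 5′, middle, 3′, limma adjusted p from 0.0267 to 0.0424).

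The 2 samples of 24 h axes differed from each other. M4 lay below the quiescent mean by −0.74 in the 5′, −0.69 in the middle and −0.70 in the 3′ probe set. RB lay below it by −0.13, −0.015 and −0.18. On a line from the quiescent mean (0%) to M4 (100%), RB thus stood at 17.2% in the 5′, 2.12% in the middle and 25.9% in the 3′ probe set. RB exceeded M4 by 0.61, 0.68 and 0.52 log2 units, and differences of at least that size between RB and M4 were seen in 26.9%, 22.8% and 33.0% of all probe sets. Without RB, with M4 as the only 24 h sample and its spread taken from the other groups, the middle and 3′ probe sets were called lower (limma adjusted p = 0.0333 and 0.0419) and the 5′ was not (0.0724). Without M4 none was called.

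The second comparison asked how ubiquitin mRNA was represented on polysomes relative to total RNA of germinated axes. The polysomal axes spent 2 h in medium, and the labels do not state this for the 24 h total RNA. Against the 24 h samples, a difference in handling could therefore not be told apart from one in RNA fraction. The same amount of RNA, 4 µg, was labelled for each sample, so a polysomal signal measures a share among polysomal mRNAs and not an amount per axis. In RNA of whole axes, fewer cells of a type and less RNA per cell cannot be told apart. Over both insulin states together, the 5′ and middle probe sets were lower on polysomes. This contrast takes the mean of the 2 differences, so the single insulin-treated total RNA sample weighs as much as M4 and RB together, and its 2 technical arrays differed by −0.52 in the 5′ and −0.43 in the middle probe set. On the polysomal side are 3 samples of each insulin state. The fit takes them as independent. Over all probe sets, however, each correlated more closely with a sample of the other insulin state than with any of its own. The 5′ probe set fell by 0.88 log2 units (1.84-fold, SE 0.20, limma adjusted p = 0.0457), and the middle by 0.75 (1.68-fold, SE 0.18, limma adjusted p = 0.0494). The 3′ probe set differed by −0.45 (SE 0.17, limma adjusted p = 0.149) and was not called. Thus 2 of 3 members were called lower, against 2.5% of all probe sets called lower, 1.64% higher and 4.15% in either direction. The members read parts of ubiquitin transcripts on the same arrays, and the 2 called ones correlated at r = 0.99 over the 11 samples. Their calls are therefore not separate evidence. The median difference was −0.75 over the members and −0.05 over all probe sets tested. Among the other 24 controls named for a maize gene, none was called in this comparison. Differences ranged from −1.41 to −0.34 over 4 probe sets of EF1a, a translation elongation factor, and from −0.22 to 0.06 over 3 of cyclophilin, a protein-folding enzyme. Both ubiquitin calls lay close to the threshold. They ended without RB and without any 1 of the 6 polysomal samples (lowest limma adjusted p among members from 0.0513 to 0.0932), when the fit held just the groups compared, and with the second technical arrays, while the direction stayed lower in all 19 alternatives for each probe set.

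Within each insulin state none of the differences was called. Without insulin they were −0.85 in the 5′ (SE 0.25), −0.78 in the middle (SE 0.22) and −0.58 in the 3′ probe set (SE 0.21), with limma adjusted p = 0.117, 0.107 and 0.167. All 3 had an unadjusted p under 0.05 (0.00792, 0.00611 and 0.0199), as did 3448 of 17582 probe sets, and of all probe sets 0.774% were called lower, 0.307% higher and 1.08% in either direction. With insulin, where the total RNA is 1 sample, the differences were −0.92 (SE 0.32), −0.73 (SE 0.28) and −0.32 (SE 0.26), with limma adjusted p = 0.456, 0.489 and 0.691, against 0.00569% of all probe sets called lower, and the error of the total RNA sample is taken from the spread of the other groups. The 24 h samples weighed on the first of these comparisons. Set against M4 alone, the polysomal mean without insulin was lower by −0.54, −0.44 and −0.32 in the order 5′, middle, 3′, and set against RB alone by −1.15, −1.11 and −0.85. Without M4, all 3 probe sets were called lower (limma adjusted p from 0.0135 to 0.0434).

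**Figure D3:**
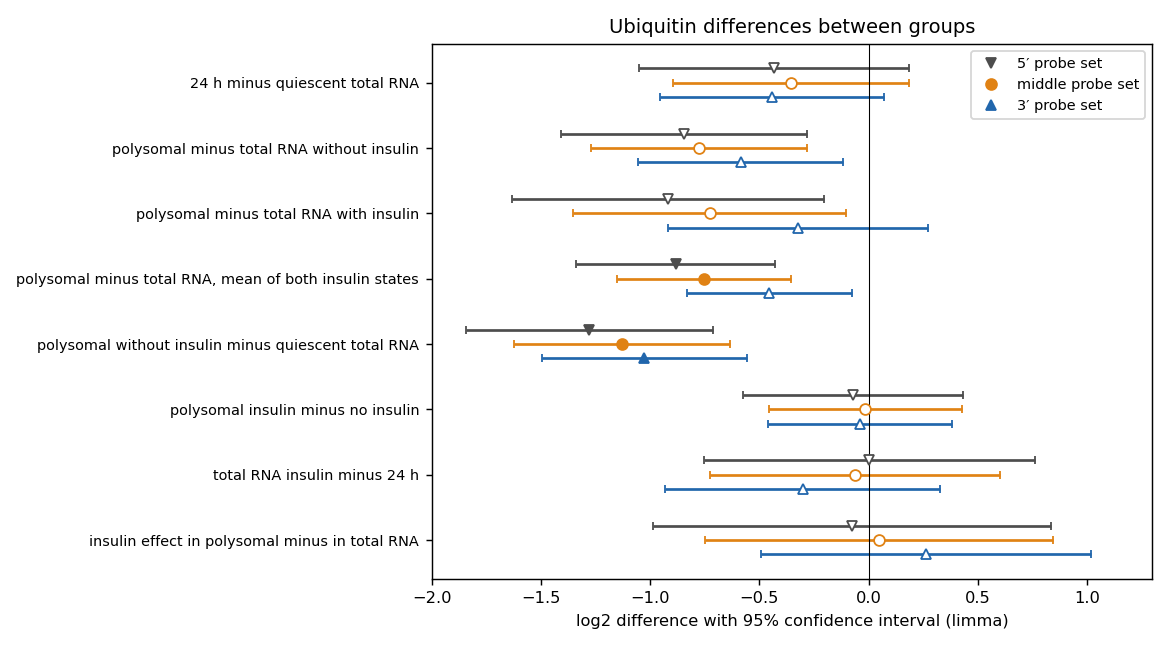
Log2 difference (horizontal axis) with its 95% confidence interval for each ubiquitin probe set in 8 comparisons, from limma over all 11 samples; filled markers were called at an adjusted p under 0.05. The largest differences, −1.28 to −1.03, are between polysomal RNA without insulin and quiescent total RNA.

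The ratio of 3′ to 5′ signal, commonly read as a sign of RNA integrity, differed between polysomal samples. The 3′ minus 5′ difference of ubiquitin was 0.58, 1.33 and 0.59 on polysomes without insulin and 1.37, 0.61 and 0.60 with insulin. It was 0.57 and 0.59 in quiescent axes, 0.61 in M4, 0.52 in RB and 0.27 in insulin-treated total RNA. Sample 2 without insulin and sample 1 with insulin stand apart from the other polysomal samples, and the remaining 4 lie between 0.58 and 0.61. The same pair had the highest 3′ minus 5′ values of EF1a (2.55 and 2.25, against 0.88 to 1.45 in the other polysomal samples) and of cyclophilin (0.20 and 0.22, against −0.22 to 0.07). It also had the lowest 5′ ubiquitin signals of all samples (10.90 and 10.87). In total RNA the EF1a value was 1.15 and 1.35 in quiescent axes, 0.63 in M4, 0.62 in RB and 0.38 with insulin. Every polysomal sample, and not just this pair, thus lay above every total RNA sample of germinated axes in the EF1a value. Over 6 polysomal and 3 total RNA samples of germinated axes, the ubiquitin ratio averaged 0.85 ± 0.39 and 0.47 ± 0.18 (SD), a difference of 0.38 (exact permutation test, two-sided, p = 0.143). Without the 2 samples that stand apart the polysomal mean was 0.59 ± 0.02. Without them the differences between polysomal and total RNA were −0.73, −0.66 and −0.55 in the order 5′, middle, 3′ and none was called (limma adjusted p from 0.135 to 0.192). With the EF1a ratio as a covariate they were −0.57, −0.57 and −0.72 (limma adjusted p from 0.260 to 0.425). That ratio separates polysomal RNA from total RNA of germinated axes, so this fit cannot tell RNA quality from RNA fraction. The part of RNA quality in the 5′ and middle results was not tested. The poly-A controls, transcripts spiked into each RNA, had median log2 signals of 8.45 to 10.8 on polysomes without insulin, 7.37 to 10.8 with insulin, 9.47 to 9.71 in quiescent axes and 7.17 to 7.56 in total RNA of germinated axes. The hybridisation controls had a median of 3.97 in polysomal sample 2 with insulin, below its background level of 4.56. In the other samples their median was 8.98 to 10.7. The part of these controls in the results was not tested.

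**Figure D4:**
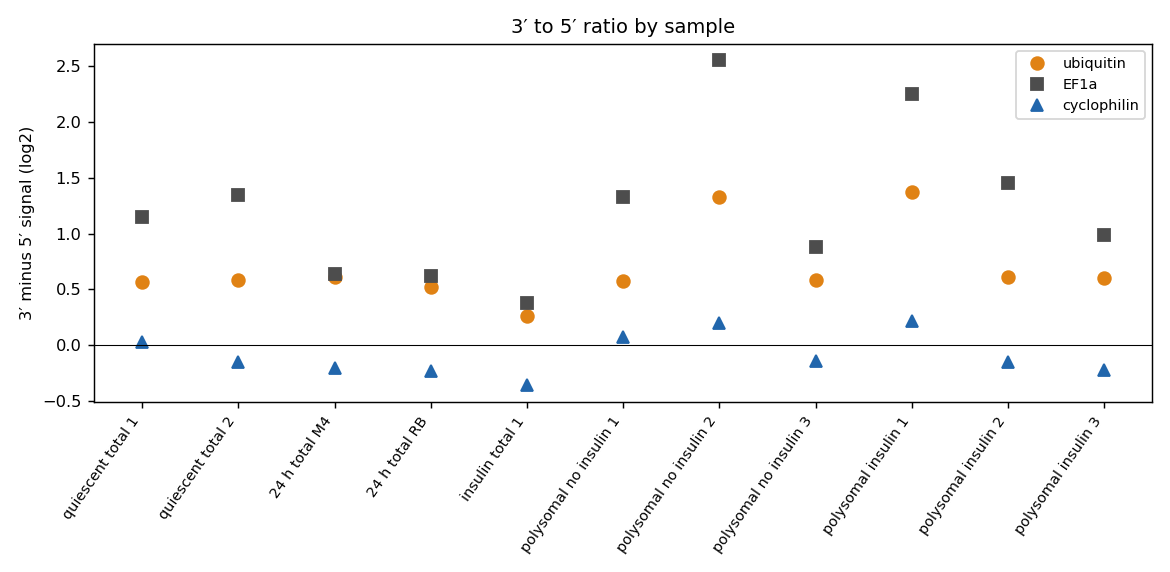
Difference between 3′ and 5′ log2 signal (vertical axis) of ubiquitin, EF1a and cyclophilin in each of the 11 samples. Polysomal sample 2 without insulin and sample 1 with insulin are highest for all 3 genes, with ubiquitin at 1.33 and 1.37.

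Ubiquitin was also set against cyclophilin on the same array, which takes out any difference in array scaling. Cyclophilin was chosen for this after the values were seen, because its 3 probe sets varied least among the bright controls, with a range of 0.34 to 0.45 log2 units over the 11 samples. A reference chosen this way leaves the ubiquitin differences much as they were, so the tests below add no separate support. Over both insulin states EF1a, another bright control, differed on polysomes by −1.41 in the 5′, −0.47 in the middle and −0.34 in the 3′ part. Ubiquitin differed by −0.88, −0.75 and −0.45, so in the 5′ part EF1a fell further. Ubiquitin set against EF1a was not tested. The ubiquitin minus cyclophilin difference of the middle probe sets was 0.54 and 0.43 in quiescent axes, −0.30 in M4, 0.06 in RB and −0.22 in insulin-treated total RNA. It lay between −1.003 and −0.60 in the 6 polysomal samples, with no overlap with total RNA. How many other probe sets do so when set against cyclophilin was not counted. By signal alone, 7.69% of all probe sets were lower on polysomes without overlap, and 9.91% with only total RNA of germinated axes on the other side. Polysomal samples averaged −0.80 ± 0.16 (n = 6) and total RNA of germinated axes −0.15 ± 0.19 (n = 3), a difference of −0.65 (exact permutation test, two-sided, p = 0.0119, Benjamini-Hochberg adjusted over 6 tests 0.0238). The 5′ pair gave −0.67 and the 3′ pair −0.55, each with the same p, which is the smallest that 84 splits can give, and lower values in 6 of 6 polysomal samples. These splits take the 6 polysomal samples as independent, yet over all probe sets each matched 1 sample of the other insulin group most closely. Counted as 3 matched pairs against 3 total RNA samples, they would allow no p below 0.1, and the limma tests on polysomal RNA rest on the same samples. Leaving out both samples with high 3′ to 5′ ratios gave −0.56 for the middle (exact p = 0.0286), −0.60 for the 3′ (exact p = 0.0286) and −0.58 for the 5′ pair (exact p = 0.0571). Between the 3 germinated and the 2 quiescent total RNA samples the differences were −0.64 in the middle, −0.75 in the 5′ and −0.66 in the 3′ pair. These groups did not overlap either, and the share of all probe sets that do so was not counted. That design cannot reach p = 0.05, since its 10 splits allow no less than 0.1, and the exact p was 0.1, 0.1 and 0.2 in that order.

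The contrast between polysomal RNA of germinated axes and the stored RNA of quiescent axes gave the largest changes. It joins a difference in state to a difference in RNA fraction, and the 2 cannot be told apart in it. All 3 members were called lower on polysomes without insulin, and here too the calls are not separate evidence. The 5′ probe set fell by 1.28 log2 units (2.43-fold, SE 0.25, limma adjusted p = 0.00179), the middle by 1.13 (2.19-fold, SE 0.22, limma adjusted p = 0.00169) and the 3′ by 1.03 (2.04-fold, SE 0.21, limma adjusted p = 0.00219). Of all probe sets, 32.6% were called lower, 25.1% higher and 57.7% in either direction. A more negative difference than that of the members was seen in 2703 (5′), 3137 (middle) and 3452 (3′) of the 17582 probe sets, and the median over all was −0.18. All 3 calls held in each of 17 alternatives, the 2 samples with high 3′ to 5′ ratios left out and the EF1a covariate among them, with differences between −1.50 and −0.92.

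Insulin made no called difference to ubiquitin. On polysomes the differences with minus without insulin were −0.07 in the 5′ (95% confidence interval −0.58 to 0.43), −0.015 in the middle (−0.46 to 0.43) and −0.04 in the 3′ probe set (−0.46 to 0.38), with limma adjusted p = 1.00 for each after rounding. The intervals leave out a 2-fold change in either direction for all 3. In limma 0% of the 17582 probe sets were called, and 57 passed an unadjusted p of 0.05, with no ubiquitin probe set among them. That is far below a share of 0.05, which would pass with no differences and independent samples. The reason was not tested. Each polysomal sample correlated best, over all probe sets, with 1 sample of the other insulin group, and the ubiquitin signals mostly followed these matches. Sample 1 without and sample 2 with insulin differed by 0.03 or less in the 5′ and 3′ and by 0.08 in the middle probe set. Sample 2 without and sample 1 with insulin differed by no more than 0.03, 0.08 and 0.02 in the 5′, middle and 3′ probe sets. The third match, sample 3 of each group, differed by 0.18, 0.04 and 0.16. In the 5′ probe set, sample 3 without insulin (11.31) lay closer to sample 2 with insulin (11.45) than to its match (11.13). What matched samples share was not modelled, since the labels do not pair them, so it stays in the spread behind the intervals above.

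In total RNA, where insulin treatment has 1 sample and its error comes from the spread of the other groups, that sample differed from the 24 h samples by 0.0033 in the 5′ (SE 0.34), −0.06 in the middle (SE 0.29) and −0.30 in the 3′ probe set (SE 0.28), none called (limma adjusted p = 0.999, 0.990 and 0.978, with 0% of all probe sets called and 427 at an unadjusted p under 0.05). Its 2 technical arrays did not measure ubiquitin alike. The first read 12.33 in the 5′, 13.12 in the middle and 12.24 in the 3′ probe set, and the second 11.81, 12.69 and 12.44. The second was therefore lower by −0.52 and −0.43 in the 5′ and middle and higher by 0.20 in the 3′ probe set, where the median size of the difference over all probe sets was 0.20. The technical arrays of quiescent sample 1 and of M4 differed by at most 0.07 and 0.18. The ubiquitin 3′ minus 5′ value was −0.09 on the first array of the insulin-treated sample and 0.62 on the second. The insulin effect on polysomes minus that in total RNA was −0.07, 0.05 and 0.26 in the order 5′, middle, 3′, with limma adjusted p = 1.00 for each after rounding, and 0% of the table was called, while 303 had an unadjusted p under 0.05. This difference rests on the same single sample, whose own spread is not known.

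The members differed in how closely they moved together. Over the 11 samples the 5′ and middle probe sets correlated at r = 0.99 (Spearman's rho 0.99), while the 3′ probe set correlated with the middle at r = 0.88 (rho 0.76) and with the 5′ at r = 0.84 (rho 0.75). Within the 9 germinated samples these were 0.99, 0.76 and 0.69. The points share arrays and samples, and the values are given as a description. The difference of 3′ minus middle signal was 0.19 and 0.29 in the polysomal samples with high 3′ to 5′ ratios and −0.56 to −0.20 in the other 9 samples. The SD over all 11 samples was 0.62 in the 5′, 0.53 in the middle and 0.46 in the 3′ probe set. Of the 13088 probe sets above background in every sample, 64.7%, 56.4% and 48.4% varied less than these. The cyclophilin probe sets had SDs of 0.09 to 0.16, with 0.351% to 3.22% of those probe sets varying less. One series of 3 GAPDH controls, for a glycolytic enzyme, had SDs of 0.20 to 0.27, while a probe set of the other GAPDH series reached 2.28 and one of actin, the microfilament protein, 1.83.

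One gene of the ubiquitin pathway was found among the probe sets with a gene name. The platform annotation, which dates from 2007, names 1453 probe sets, none of them among the ubiquitin controls, and 7 belong to ubc7 (LOC542600), a ubiquitin-conjugating enzyme that receives activated ubiquitin and hands it on to a target. Its 7 probe sets share a gene and are not separate evidence. At 24 h, 4 were called lower than in quiescent axes while 3 were not called, with a median difference of −0.79 (−0.17 over all probe sets, 25.8% of which were called lower). Between polysomal and total RNA over both insulin states, 2 were called lower and 5 were not, with a median of −0.51 (−0.05 over all, 2.5% called lower). The 2 called probe sets fell by 0.68 and 0.62 (limma adjusted p = 0.0344 and 0.0328). Between polysomes without insulin and quiescent axes, 6 were called lower and 1 was not, with a median of −1.44 (−0.18 over all, 32.6% called lower). One of these 6 was not above background in every polysomal sample. None was called for insulin in either RNA. The ubc7 probe set most like ubiquitin stood at 13.04 and 12.93 in quiescent axes, 12.32 in M4, 12.44 in RB and 12.31 in insulin-treated total RNA. On polysomes it was 11.85, 11.71 and 11.51 without insulin and 11.64, 11.85 and 11.77 with insulin. It was lower at 24 h by −0.61 (SE 0.17, limma adjusted p = 0.0143) and on polysomes by −0.62 (SE 0.12, limma adjusted p = 0.0328). Since it was picked for its likeness over the same samples, these differences follow in part from the choice. Another ubc7 probe set, at 12.60 in quiescent axes, differed by −0.22 at 24 h and −0.11 on polysomes, neither called. In the ubc7 probe set most like ubiquitin, M4 and RB differed by 0.12, against 0.68 in the middle ubiquitin probe set. The difference between these was not tested.

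Probe sets with a pattern like that of the middle ubiquitin probe set were ranked by Pearson's r over the 11 samples, among the 13088 above background throughout, with the other ubiquitin probe sets left out. The median r over these was 0.11. The closest had r = 0.99 and no gene in the annotation. The closest with a gene was second in the list, tif1 (LOC541664), at r = 0.99 and 0.98 within the 9 germinated samples. It also carries the name GOS2, which in rice belongs to a counterpart of a yeast translation initiation factor. It went from 14.14 and 14.17 in quiescent axes to 13.56 in M4 and 13.99 in RB, was 13.70 in insulin-treated total RNA, and lay between 12.91 and 13.24 on polysomes. The other 9 closest with a gene lay at r = 0.94 to 0.97 and at positions 40 to 220. They were sdg113, named for the SET domain of histone methyltransferases, LOC541824, mbd106, named for a methyl-CpG-binding domain, EMB5 (LOC542280), a late embryogenesis abundant protein of maturing seeds, eIF-4A (tif4A2), an RNA helicase of translation initiation, SPT16 (gtc102), a histone chaperone subunit, nfa102, a nucleosome assembly factor, HMT-3, a homocysteine methyltransferase, and ubc7. No other control named for a maize gene was among the 100 closest, and the nearest was an actin probe set at r = 0.77 and position 2386.

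The size of change differed among the like probe sets. Of the 10 probe sets with a gene, 10 were called lower on polysomes without insulin than in quiescent axes, by −3.65 to −0.58, 5 were called lower on polysomes than in total RNA and 4 lower at 24 h. These counts follow from how the probe sets were chosen and carry no test. EMB5 spanned the widest range, from 13.42 and 13.47 in quiescent axes through 11.28 in M4, 12.00 in RB and 11.93 with insulin in total RNA to between 8.96 and 10.6 on polysomes. Over the same groups tif1 moved almost as ubiquitin did, with −1.06 on polysomes without insulin against quiescent axes where the middle ubiquitin probe set had −1.13. The samples fall into separate blocks (quiescent, germinated total and polysomal), so r is given as a measure of likeness only.

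**Figure D5:**
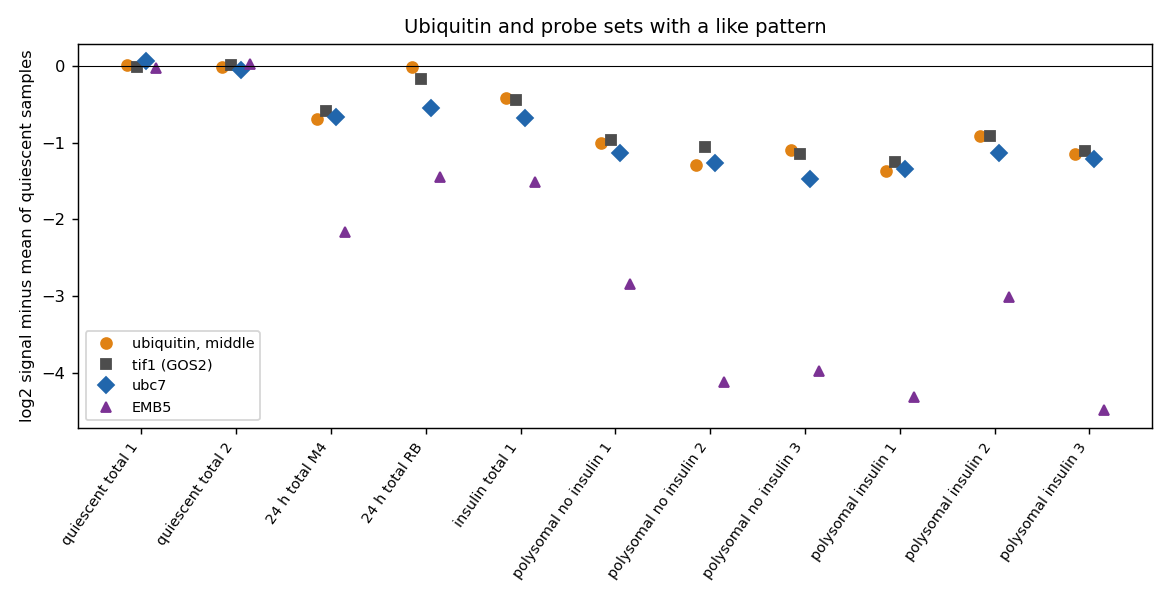
Log2 signal minus the mean of the quiescent samples (vertical axis) in each of the 11 samples for the middle ubiquitin probe set, tif1, the ubc7 probe set most like ubiquitin and EMB5. Ubiquitin and tif1 lie close together, and EMB5 lies further down, to between 8.96 and 10.6 in absolute signal on polysomes.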

How the data were processed

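Per the labels' protocols, 4 µg of RNA per sample was turned into biotinylated cRNA and hybridised to Affymetrix maize arrays. The authors deposited 1 table of 17734 probe sets on 14 arrays, used as log2 intensities because of its range, with no stated scale. No source used here gives the background correction, normalization or probe summary, and the submitters' processing notes name only limma. Technical arrays were averaged, and 152 controls not named for a maize gene were left out, leaving 17582. All 5 groups were fitted with limma 3.58.1 (lmFit, eBayes) in R 4.3.3, with 6 residual and 3.21 prior degrees of freedom and 8 contrasts. A call is an adjusted p (Benjamini-Hochberg, over all 17582) below 0.05. The fit was tested on simulated data with independent noise in each sample, so links between polysomal samples were not covered. The labels do not say whether replicates came from separate seed lots, so the p-values rest on a spread between samples that may be technical, and the number of arrays limits the precision. The members, lists and tests were chosen with earlier results of these data known. Named were all ubiquitin probe sets, other controls in ranges, the 10 annotated probe sets most like the middle ubiquitin one (at most 2 without a gene), and pathway genes, matched by symbol and synonym because the tables give no descriptions. Of 1453 annotated probe sets 1452 have 1 gene, and 1377 matched RefSeq by gene ID. Figures used matplotlib 3.10.9.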

Additional observations from a re-analysis of the deposited data

How the results depend on the processing

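Alternatives covered normalization, dim probe sets, technical arrays, the samples in the fit, the prior, a 2-fold minimum, the replicate number and leaving out samples. The second technical arrays, the EF1a covariate, the removal of both polysomal samples with high 3′ to 5′ ratios and the cyclophilin comparison were chosen after the data were seen. For 24 h against quiescent axes, 0 calls became 3 with median centring, and 0 to 2 with a sample left out. For polysomal against total RNA over both insulin states, 2 calls became 1 with median centring and 0 with only the compared groups, a 2-fold minimum, second technical arrays, the EF1a covariate or both high-ratio samples left out, and 0 to 2 with a sample left out. Without insulin, 0 calls became 0 to 3 with a sample left out, 3 without M4. The cause was not tested. Polysomal RNA against quiescent axes gave 3 calls throughout, and insulin gave 0. The 5′ cyclophilin comparison was −0.58 without both high-ratio samples (exact p = 0.0571), and −0.77 to −0.54 with 1 sample left out. With the dimmest 25% left out, median percentiles of ubiquitin were 90.8 (5′), 96.3 (middle) and 95.6 (3′), against 93.1, 97.2 and 96.7, since fewer dim probe sets were ranked. Uncalled differences near 0 turned sign. For insulin in total RNA, the 5′ probe set gave −0.0494 with quantile normalization, −0.0192 with median centring, −0.30 with second arrays, −0.0695 with EF1a and −0.30 to 0.31 with a sample left out, and the middle gave 0.18 with first arrays and −0.40 to 0.28 with a sample left out. For the difference of both insulin effects, the middle gave −0.19 with first arrays and −0.29 to 0.39 with a sample left out, and the 5′ 0.23 with second arrays and −0.38 to 0.23. For insulin on polysomes, the middle gave 0.0196 without both high-ratio samples, and with a sample left out the 5′ gave −0.23 to 0.0708, the middle −0.13 to 0.10 and the 3′ −0.15 to 0.10. Of the 100 probe sets most like the middle ubiquitin probe set, 82 remained with quantile normalization and 79 with median centring. Deviations of same-numbered polysomal samples from their insulin group means correlated at r = −0.63, −0.44 and 0.60 for samples 1, 2 and 3. The numbers therefore do not pair samples 1 and 2, while sample 3 of each group was also the closest match. With the replicate number as a block, insulin on polysomes gave 0 calls, polysomal against total RNA with insulin 0 and polysomal against quiescent axes 3. No block could be fitted for comparisons with the 24 h samples, which carry no number.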
